A study of Homo sapiens with 16 samples.

Results

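The genes described here encode the matrix metalloproteinases (MMP), their tissue inhibitors (TIMP), and the ADAM and ADAMTS metalloproteinases. They were chosen by name: every row of a table whose gene symbol is MMP, TIMP, ADAM or ADAMTS followed by digits only was taken. This gave 51 genes in all, 45 of the 19454 genes of the PC9 table and 42 of the 17954 genes of the MDA231 table, with 36 in both. A member was tested in a table where its mean value over the 4 groups was at least 10, which 38 members passed in PC9 (12 MMP, 4 TIMP, 12 ADAM and 10 ADAMTS) and 34 in MDA231 (9 MMP, 4 TIMP, 11 ADAM and 10 ADAMTS). Just inside that limit lay ADAMTS3 and MMP16 in PC9 (both with a mean of 10.4) and MMP24 in MDA231 (11.4). Just outside lay MMP2 in PC9 (8.95) and MMP10 in MDA231 (8.35).

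RNA from cultured cells of 2 human cancer lines, PC9 (lung) and MDA231 (breast), was sequenced in 16 libraries, to follow lipocalin-2 (LCN2), an iron-carrier-binding protein, in cells that spread to the leptomeninges, the thin membranes that cover the brain and spinal cord. Each line had 4 groups of 2 libraries. Parental cells carried no hairpin. LeptoM cells, a leptomeningeal metastatic derivative of the same line, carried by lentivirus either a control hairpin (shCTL) or 1 of 2 hairpins against LCN2 (shLCN2_1 or shLCN2_2). The step from parental to LeptoM shCTL therefore changes the derivative and adds a vector at once, and the effects of the 2 cannot be told apart. All LeptoM groups of a line come from a single derivative, and the cells were grown in dishes without other cell types. The labels do not state whether replicates were cultured separately, and a p-value here reads only how far replicate libraries lie apart, a spread that may be technical.

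MMPs are secreted or membrane-bound zinc proteases that cut collagens, laminins, proteoglycans and other proteins outside the cell. They are made as inactive proenzymes, and TIMPs block the active enzymes. ADAMs sit in the membrane and release the outer parts of other membrane proteins such as growth factors and cytokines, although several of them lack the catalytic motif. ADAMTS proteases are secreted and cut proteoglycans and procollagens. Lipocalin-2 protein is known to bind MMP9 protein. RNA levels, measured here, say nothing of whether a proenzyme is activated.

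Values are reads of a gene divided by a size factor for its library, called normalized reads below. A member is called where the adjusted p from limma (log2 of the value plus 1, with the Benjamini-Hochberg adjustment over all tested genes of that table) is under 0.05, and it then rose or fell. Log2 changes are on that scale. Where the lines are compared, the PC9 change minus the MDA231 change is tested with the standard errors of the limma fits, and the p is adjusted over the genes tested in both tables. Each pair of values below gives replicates 1 and 2 of a group.

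Gene reads per library ran from 36796098 to 51759154 in PC9 and from 41751486 to 49050069 in the LeptoM libraries of MDA231. The MDA231 parental libraries stood apart with 11592790 and 11613984, so that 3 reads there are worth 8.51 and 8.94 normalized reads, against 1.93 to 2.28 in the LeptoM libraries. In PC9, LCN2, the hairpins' target, had 21140 and 23247 normalized reads in parental cells and 51004 and 49615 in shCTL. It had 3575 and 7046 in shLCN2_1, below both parental libraries, and 21415 and 18861 in shLCN2_2, near the parental level. In MDA231 its mean was too low for the test. It had 8.51 and 2.98 in parental cells (4 reads), 19.3 and 13.7 in shCTL (45 reads), 6.53 and 5.79 in shLCN2_1 (19 reads) and 4.31 and 4.93 in shLCN2_2 (13 reads), so every hairpin library against LCN2 lay below both shCTL libraries. The epithelial genes EPCAM (11876 to 20746) and CDH1 (19942 to 28434) were abundant in PC9, while the lung markers NKX2-1 (0 to 8.39) and NAPSA (21.8 to 40.7) were low. In MDA231 the mesenchymal gene VIM (174830 to 225347) was abundant and CDH1 (0 to 7.15) was near absent. Of 9 macrophage and granulocyte markers 5 were in the tables. LYZ had at most 21.0 and PTPRC at most 47.2 in any library, and the summed level of the list in PC9 ran from 825 to 911 in parental, 661 to 712 in shCTL, 307 to 458 in shLCN2_1 and 1310 to 1363 in shLCN2_2, with CSF1R at 144 to 899.7 and ITGAM at 69.2 to 305. The part of this list in the results on PC9 was not tested. In MDA231, how far a gene's value in a library lay from its mean over libraries was correlated with its GC content (Spearman, across 14204 genes) at -0.29 and -0.59 in parental cells, 0.30 and -0.33 in shCTL and 0.21 to 0.64 in the 4 hairpin libraries against LCN2.

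In LeptoM shCTL cells, most TIMP genes were higher than in parental cells of both lines. TIMP3, the TIMP that is held in the extracellular matrix, rose 5.15-fold in PC9 and 5.0-fold in MDA231. TIMP2 and TIMP4 rose by less in both lines, and TIMP1 fell in PC9 and was not called in MDA231. Of all tested members, 10 rose and 9 fell among 38 in PC9, where 45.6% of all tested genes were called (23.8% higher and 21.8% lower), and 16 rose and 4 fell among 34 in MDA231, where 48.7% were called (24.8% higher and 23.8% lower). In bulk RNA, fewer cells that express a gene and less RNA of it per cell cannot be told apart. The members' median log2 change was 0.16 in PC9, beside 0.01 over all genes, and 0.41 in MDA231, beside 0.04.

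**Figure D1:**
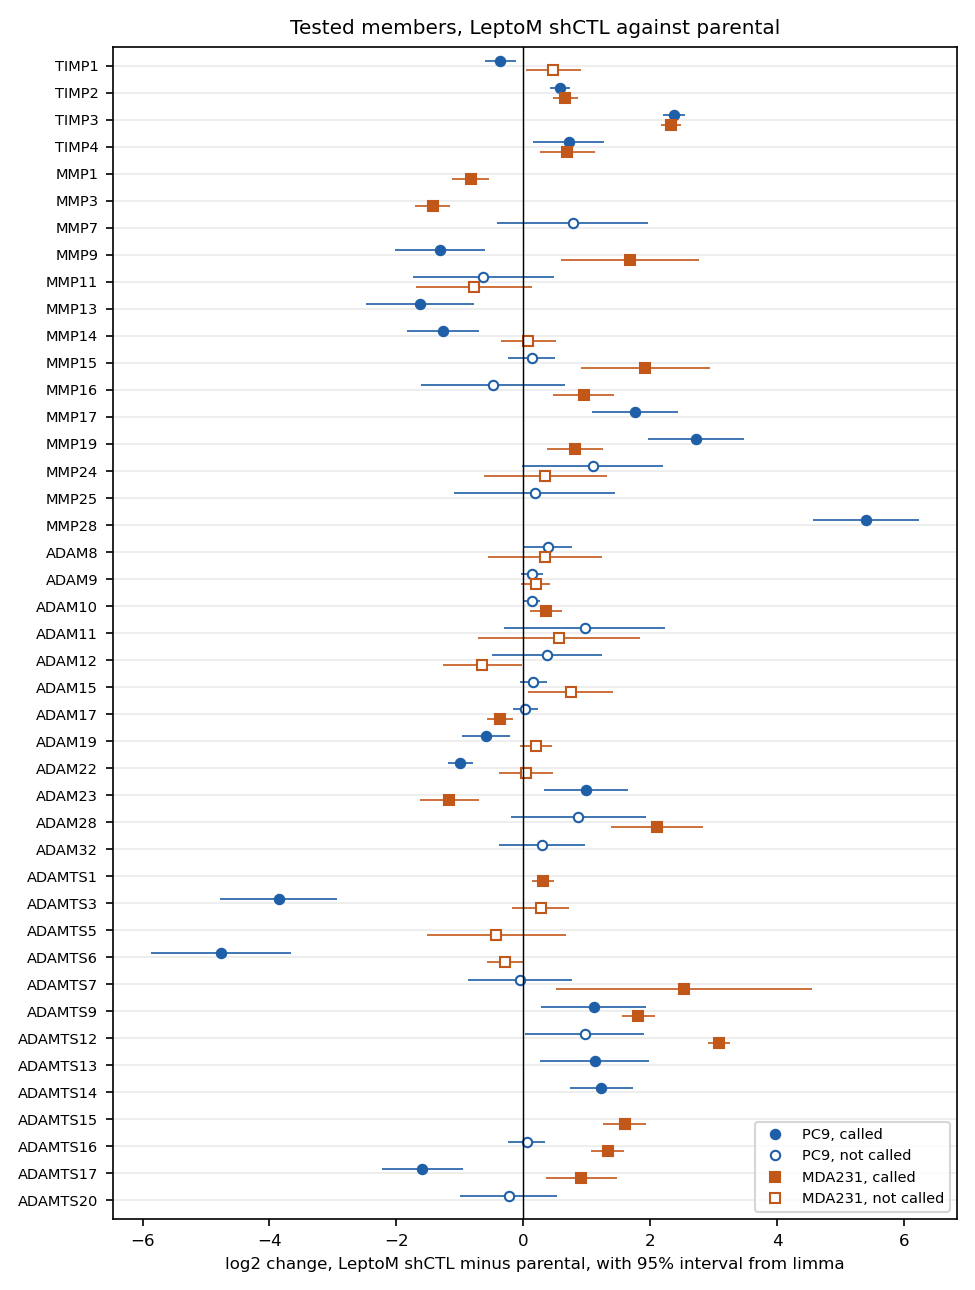
Each row is a tested member. The x axis is the log2 change of LeptoM shCTL against parental with its 95% interval from limma, in PC9 (circles) and MDA231 (squares). Filled symbols are called and open symbols are not. TIMP3 lies at 2.36 in PC9 and 2.32 in MDA231, while ADAMTS12 (0.96 and 3.08) and MMP9 (-1.32 and 1.68) lie apart.

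Stretches of 4 promoters are shown for members the results turn on and for which RefSeq (GRCh38.p14) gave an entry: TIMP3 and TIMP4, which rose in LeptoM cells of both lines, ADAMTS12, which had the largest rise of the members from parental to LeptoM cells in MDA231, and MMP7, which differed between the hairpins in PC9. Each is the 120 bases before the gene's start, 5′ to 3′ on the gene's strand, at chr22:32801585-32801704 (plus), chr3:12158913-12159032 (minus), chr5:33891991-33892110 (minus) and chr11:102530748-102530867 (minus) in that order. Capitals mark the 3 motifs searched in the 250 bases before a start: the GC box (GGGCGG or CCGCCC, that is, on both strands), an AP-1 type site (TGANTCA, which reads alike on both strands) and a TATA box (TATAAA, on the gene's strand).
TIMP3: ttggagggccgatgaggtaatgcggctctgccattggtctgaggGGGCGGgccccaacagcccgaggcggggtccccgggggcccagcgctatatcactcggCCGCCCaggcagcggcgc
TIMP4: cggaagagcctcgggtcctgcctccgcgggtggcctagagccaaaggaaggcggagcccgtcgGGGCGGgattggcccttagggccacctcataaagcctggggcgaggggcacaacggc
ADAMTS12: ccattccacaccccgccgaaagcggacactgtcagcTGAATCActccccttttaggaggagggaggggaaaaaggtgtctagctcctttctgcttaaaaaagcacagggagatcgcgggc
MMP7: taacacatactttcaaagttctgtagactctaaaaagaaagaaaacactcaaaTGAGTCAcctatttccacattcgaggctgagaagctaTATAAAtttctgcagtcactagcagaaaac

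Of the 51 members, 29 had a promoter entry. The GC box was in 22 of these 29, beside 42.6% of all 35116 RefSeq promoters. TGANTCA was in 3 members (ADAMTS12, MMP7 and MMP10), beside 6.57% of all promoters, and TATAAA in 3 (MMP7, MMP8 and MMP10), beside 6.80%. In ADAMTS12 the TGANTCA match began 84 bases before the RefSeq start, which is inside the GENCODE 29 span of the gene. In both MMP7 and MMP10 it began 67 bases before the RefSeq start. The TIMP3 promoter held GC boxes at 166, 158, 131, 76 and 18 bases before the RefSeq start. A match describes letters and is no shown site. Promoters of MMP1, MMP2, MMP3, MMP9, MMP12, MMP13, MMP16, MMP17, MMP19, MMP25, MMP28, TIMP2, ADAM5, ADAM9, ADAM11, ADAM28, ADAM32, ADAMTS1, ADAMTS5, ADAMTS9, ADAMTS15 and ADAMTS16 were not analysed here.

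TIMP3 lies on chromosome 22 (32801701 to 32863043, plus strand, GENCODE 29 on GRCh38), within the span of SYN3 on the other strand without sharing exons. In PC9 it had 1858 and 1862 normalized reads in parental cells, 9619 and 9551 in shCTL, 12288 and 10598 in shLCN2_1 and 11354 and 11161 in shLCN2_2. Every LeptoM library was far above both parental ones, and the log2 change from parental to shCTL was 2.36 (SE 0.07, limma adjusted p = 6.12e-07). MDA231 libraries had 2428 and 2455 in parental cells, 11935 and 12484 in shCTL, 16282 and 15928 in shLCN2_1 and 15730.0 and 16247 in shLCN2_2. Parental and LeptoM libraries again did not overlap, with a log2 change of 2.32 (SE 0.07, limma adjusted p = 4.9e-06). Both calls held under every alternative run. On a scale of reads per kilobase of exon relative to all gene reads of the library (RPKM), TIMP3 went from the 9th highest of the members in parental PC9 (9.17) to the 3rd in shCTL (48.0), and from the 8th (15.7) to the 4th (84.3) in MDA231.

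TIMP2 also takes part in the activation of pro-MMP2 on the cell surface, besides inhibiting MMPs. In PC9 it had 9440.5 and 9327 normalized reads in parental cells and 13941 and 13954 in shCTL. In MDA231 it had 10533 and 9215 in parental cells and 15742 and 15289 in shCTL. The groups did not overlap in either line, and TIMP2 rose by 0.57 on the log2 scale in PC9 (SE 0.07, limma adjusted p = 0.000333) and by 0.66 in MDA231 (SE 0.08, limma adjusted p = 0.00104), calls that held under every alternative run, with the MDA231 change at 0.42 after each library's trend of expression with GC content was removed (GC trend removal). Its exons overlap those of a gene on the other strand, and the strand setting of the counting was not given in the sources used here.

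TIMP4 was the least abundant of the family per length in both lines. It had 283 and 251 normalized reads in parental PC9 and 469 and 409.5 in shCTL, and 68.1 and 56.6 in parental MDA231 and 100.1 and 102 in shCTL. Every shCTL library was above both parental ones, with log2 changes of 0.71 (SE 0.24, limma adjusted p = 0.0418) and 0.69 (SE 0.18, limma adjusted p = 0.0193). Both calls were near the threshold: in PC9 the adjusted p was 0.0675 to 0.191 without any one library of parental, shCTL or shLCN2_2, and in MDA231 it was 0.0975 without shCTL replicate 1 and 0.0927 without replicate 2. Nor was the PC9 rise called by edgeR (0.057) or after GC trend removal (0.0591), or the MDA231 rise by DESeq2 (0.108) or with all libraries' reads thinned to equal depth (0.167). Its exons overlap those of SYN2 on the other strand.

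TIMP1 moved otherwise. In PC9 it had 2147 and 2528 normalized reads in parental cells and 1903 and 1722 in shCTL, and fell by 0.36 on the log2 scale (SE 0.11, limma adjusted p = 0.0237). The groups did not overlap, but the call was lost without shCTL replicate 1 (adjusted p = 0.0557), shCTL replicate 2 (0.156) or parental replicate 2 (0.124). For MDA231 the values were 2521 and 1755 in parental cells and 3085 and 2756 in shCTL, a log2 change of 0.47 that was not called (SE 0.18, limma adjusted p = 0.0673). The difference between the lines was itself called (-0.84, adjusted p = 0.00683), whereas for TIMP2, TIMP3 and TIMP4 it was -0.08 (SE 0.11), 0.04 (SE 0.10) and 0.02 (SE 0.30), with adjusted p = 0.548, 0.743 and 0.957.

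**Figure D2:**
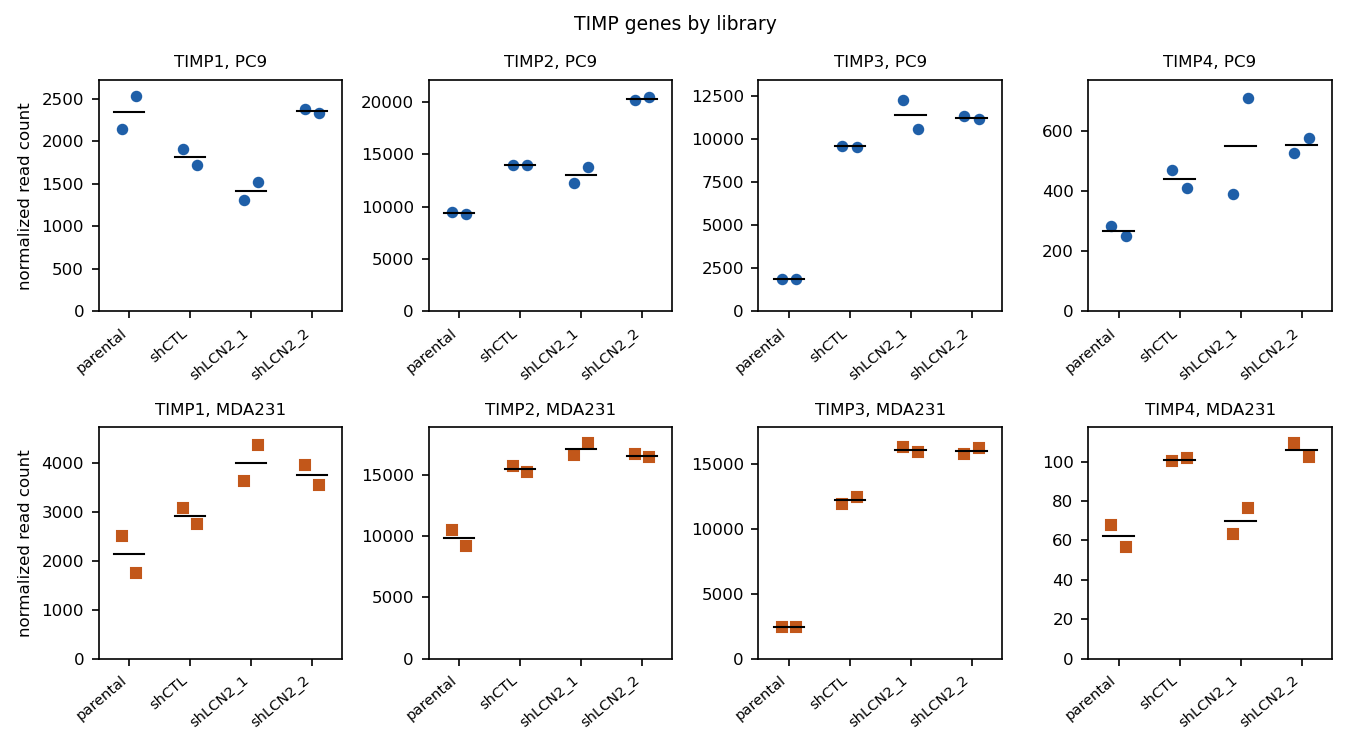
Normalized read counts of the 4 TIMP genes in each library of PC9 (upper row, circles) and MDA231 (lower row, squares), by group. Bars are the means of 2 libraries. All LeptoM libraries of TIMP3 lie at 9551 or above, beside parental libraries at 1858 to 2455.

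Among the MMPs, LeptoM shCTL cells of PC9 had more MMP28, MMP19 and MMP17 RNA and less MMP13, MMP14 and MMP9 than parental cells. In MDA231, MMP9, MMP15, MMP16 and MMP19 rose, and MMP1 and MMP3 fell. Of the MMPs tested, 3 rose and 3 fell among 12 in PC9, beside 23.8% of all genes higher and 21.8% lower, a share near that background. In MDA231 4 rose and 2 fell among 9, beside 24.8% higher and 23.8% lower. MMP19 alone rose in both lines and MMP9 went in opposite directions.

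The collagenases cut fibrillar collagens. MMP1 lies on chromosome 11 (102789920 to 102798160, minus strand) and was the most abundant member in MDA231 by far per length, at an RPKM of 1616 in parental cells, beside 80.4 for MMP14, the next. In normalized reads it had 94253 and 121114 in parental MDA231, 58372 and 61543 in shCTL, 47599.7 and 46536 in shLCN2_1 and 45195 and 50080.2 in shLCN2_2. The parental libraries were the highest, and MMP1 fell by 0.83 on the log2 scale from parental to shCTL (SE 0.12, limma adjusted p = 0.00183), a call that held under every alternative run. In PC9 it lay between 2.75 and 16.5 and was not tested. MMP13 in PC9 had 7.94 and 8.22 in parental cells and 1.84 and 2.03 in shCTL (15 and 4 reads), and fell by 1.63 on the log2 scale (SE 0.37, limma adjusted p = 0.00808), without overlap. By DESeq2 its adjusted p was 0.105, the highest over its alternatives, which began at 0.00687.

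The gelatinases cut denatured collagen and collagen of basement membranes. MMP9, on chromosome 20 (46008908 to 46016561, plus strand), had 52.6 and 70.5 normalized reads in parental PC9 and 26.6 and 21.3 in shCTL. It fell by 1.32 on the log2 scale (SE 0.31, limma adjusted p = 0.0094), without overlap, and the call was lost without shCTL replicate 2 (adjusted p = 0.0683) or parental replicate 2 (0.0551). In MDA231 it had 8.51 and 2.98 in parental cells (4 reads in all) and 20.0 and 17.4 in shCTL (51 reads), a ratio of 3.23 with a 95% counting interval of 1.19 to 12.3. Here it rose by 1.68 on the log2 scale (SE 0.46, limma adjusted p = 0.0219), without overlap. That call was lost without shCTL replicate 1 (0.107), shCTL replicate 2 (0.0721) or parental replicate 2 (0.0629), and with edgeR (0.109) or DESeq2 (0.0963), and the change was 1.08 after GC trend removal. The difference between the lines was called (-3.00, adjusted p = 0.000797). MMP2 lay between 3.97 and 16.5 in the PC9 libraries, was not tested, and has no value for MDA231 here. Exons of MMP9 overlap those of SLC12A5-AS1 on the other strand, and reads of the 2 genes cannot be told apart if the counting did not use strand.

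Stromelysins cut a wide set of matrix proteins and can activate other pro-MMPs. MMP3, on chromosome 11 (102835801 to 102843803, minus strand), had 1381 and 1552 normalized reads in parental MDA231 and 519 and 567 in shCTL. It fell by 1.43 on the log2 scale (SE 0.12, limma adjusted p = 0.000194), without overlap and under every alternative run. MMP1 and MMP3 lie near each other in the same cluster, and the pseudogene WTAPP1 on the other strand overlaps exons of both. MMP11 was tested in both lines and not called by limma in this comparison in either, but with the GC trend removed it was called lower in MDA231 (-1.33, adjusted p = 0.00454).

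Membrane-type MMPs stay on the cell surface. MMP14, which activates pro-MMP2 and cuts collagen, had 245 and 259.5 normalized reads in parental PC9 and 102 and 107 in shCTL, without overlap, and fell by 1.27 on the log2 scale (SE 0.25, limma adjusted p = 0.00414). The MDA231 libraries had 14303 and 9799 in parental cells and 13252 and 11727 in shCTL. Those groups overlapped and the log2 change was 0.07 (SE 0.18, limma adjusted p = 0.755). After each library's trend with GC content was removed, the MDA231 value turned to -0.39 (adjusted p = 0.000239), and over its alternatives the adjusted p ran from 0.000239 to 0.971. MMP17, a membrane-type MMP anchored by a lipid, had 20.8 and 35.2 in parental PC9 and 112 and 79.3 in shCTL, and rose by 1.76 on the log2 scale (SE 0.30, limma adjusted p = 0.00196). MMP15 in MDA231 had 56.7 and 23.8 in parental cells and 174 and 116 in shCTL, and rose by 1.92 (SE 0.43, limma adjusted p = 0.0101). Neither pair overlapped, and the MMP15 call was lost without shCTL replicate 1 (adjusted p = 0.0726). After GC trend removal the MMP15 change was 1.18 and still called.

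MMP28 (epilysin) and MMP19 belong to no larger class. MMP28 had 0.992 and 2.35 normalized reads in parental PC9 (3 reads in all) and 112 and 103 in shCTL (223 reads), a ratio of 66.6 with a 95% counting interval of 22.5 to 326. It rose by 5.39 on the log2 scale (SE 0.36, limma adjusted p = 2.16e-05), the largest change in size of the members in PC9. MMP19 had 18.9 and 8.22 in parental PC9 and 85.3 and 90.4 in shCTL, and rose by 2.72 (SE 0.33, limma adjusted p = 0.000403). In MDA231 it had 59.6 and 53.6 in parental cells and 111 and 89.5 in shCTL, and rose by 0.81 (SE 0.19, limma adjusted p = 0.0115). None of these groups overlapped. The PC9 calls on both genes held under every alternative run, while MMP19 in MDA231 was lost without shCTL replicate 1 (adjusted p = 0.0963) and with DESeq2 (0.0556), its alternatives running from 0.00814 to 0.0963. Exons of MMP19 overlap those of TMEM198B on the other strand.

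Of the ADAM genes, 1 rose and 2 fell among 12 tested in PC9, beside 45.6% of all genes called, and 2 rose and 2 fell among 11 in MDA231, beside 48.7%. ADAM10 and ADAM17, the main sheddases of growth factors, Notch and cytokines, were abundant in both lines. ADAM10 had 6921 and 6614 normalized reads in parental PC9 and 7312 and 7496 in shCTL (log2 change 0.13, SE 0.06, limma adjusted p = 0.0924). In MDA231 ADAM10 had 4277 and 5130.2 in parental cells and 5790.1 and 6180.2 in shCTL, and rose by 0.35 on the log2 scale (SE 0.11, limma adjusted p = 0.0307). The groups did not overlap in either line, but the MDA231 call was lost without shCTL replicate 1 (0.0918), shCTL replicate 2 (0.151), shLCN2_1 replicate 1 (0.0529), shLCN2_1 replicate 2 (0.0522) or parental replicate 1 (0.0685). The GC trend removed, ADAM10 was called in both lines, at 0.21 in PC9 and 0.64 in MDA231. ADAM17 had 5969.5 and 5658 in parental PC9 and 5801 and 6028 in shCTL, with overlap (log2 change 0.03, SE 0.09, limma adjusted p = 0.832). In MDA231 it had 3775 and 4165 in parental cells and 2964 and 3167 in shCTL, without overlap, and fell by 0.37 (SE 0.09, limma adjusted p = 0.0114). That call was lost without shCTL replicate 1 (0.0959) and after the GC trend was removed (-0.09, adjusted p = 0.145), with 0.0046 to 0.166 over all alternatives.

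The ADAMs without a catalytic motif act through binding. ADAM22 had 862 and 823 normalized reads in parental PC9 and 429 and 417 in shCTL, and fell by 0.99 on the log2 scale (SE 0.09, limma adjusted p = 6.97e-05), without overlap and under every alternative run. It is named here after its values were seen, since its change is just under 1. ADAM23 had 99.3 and 116 in parental MDA231 and 46.5 and 47.8 in shCTL, and fell by 1.17 (SE 0.20, limma adjusted p = 0.00317). In PC9 it had 175 and 182 in parental cells and 330.3 and 378 in shCTL, and rose by 0.98 (SE 0.29, limma adjusted p = 0.0246). The PC9 call was lost without either shCTL or either parental library (adjusted p = 0.0756 to 0.125), but the difference between the lines was called (2.15, adjusted p = 0.000214). ADAM28, which has the catalytic motif, had 2.84 and 2.98 in parental MDA231 (2 reads) and 19.3 and 12.9 in shCTL (44 reads), a ratio of 5.57 with a 95% counting interval of 1.45 to 47.5. It rose by 2.10 on the log2 scale (SE 0.31, limma adjusted p = 0.0018) without overlap, and was not called by DESeq2 (adjusted p = 0.0806, beside 0.000614 at the lowest of its alternatives).

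Of the ADAMTS genes, 7 of the 10 tested rose in MDA231, beside 24.8% of all genes, and 3 rose and 3 fell among 10 in PC9, beside 23.8% and 21.8%. The median over the 10 was 1.12 on the log2 scale in MDA231 and -0.00 in PC9.

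ADAMTS12, on chromosome 5 (33523535 to 33892192, minus strand), cuts cartilage oligomeric matrix protein. It had 763 and 757 normalized reads in parental MDA231, 6427 and 6477 in shCTL, 8529.9 and 7929 in shLCN2_1 and 6472 and 6805 in shLCN2_2. All LeptoM libraries were far above the parental ones, and the rise to shCTL was 8.48-fold (log2 change 3.08, SE 0.07, limma adjusted p = 2.8e-06), under every alternative run. In PC9 it had 25.8 and 22.3 in parental cells and 47.7 and 47.8 in shCTL, without overlap, a log2 change of 0.96 that was not called (SE 0.41, limma adjusted p = 0.0874). The difference between the lines was called (-2.12, adjusted p = 0.00297).

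Hyalectanases of the family cut versican and aggrecan. ADAMTS9 had 372 and 393 normalized reads in parental MDA231 and 1374 and 1312 in shCTL, and rose by 1.81 on the log2 scale (SE 0.11, limma adjusted p = 7.25e-05). ADAMTS15 had 213 and 167 in parental MDA231 and 590.0 and 552 in shCTL, and rose by 1.59 (SE 0.15, limma adjusted p = 0.000296). Neither overlapped, and both calls held under every alternative run. In PC9, ADAMTS9 had 220.3 and 237 in parental cells and 502 and 484 in shCTL, and rose by 1.10 (SE 0.36, limma adjusted p = 0.0358). That call was lost without any one library of parental, shCTL or shLCN2_2 (adjusted p = 0.0591 to 0.140). Exons of ADAMTS9 overlap those of ADAMTS9-AS1 on the other strand.

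The procollagen N-proteinases ADAMTS3 and ADAMTS14 went opposite ways in PC9. ADAMTS14 had 49.6 and 74.0 normalized reads in parental PC9 and 149.6 and 137 in shCTL, and rose by 1.23 on the log2 scale (SE 0.22, limma adjusted p = 0.00245). ADAMTS3 had 23.8 and 31.7 in parental PC9 (51 reads) and 0.918 and 1.02 in shCTL (2 reads). The parental level was 28.4 times that in shCTL, with a 95% counting interval of 7.48 to 241, and ADAMTS3 fell by 3.86 on the log2 scale (SE 0.40, limma adjusted p = 0.000182). ADAMTS6, which binds fibrillin, showed the same pattern, with 44.7 and 61.1 in parental PC9 (97 reads) and 0.918 and 1.02 in shCTL (2 reads). The ratio was 54.1, with an interval of 14.6 to 453, and the log2 change -4.76 (SE 0.48, limma adjusted p = 0.000154). None of these 3 overlapped between the groups.

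Other ADAMTS genes differed between the lines. ADAMTS16 had 320.5 and 309.8 normalized reads in parental MDA231 and 828 and 758 in shCTL, and rose by 1.33 on the log2 scale (SE 0.11, limma adjusted p = 0.000203). In PC9 it had 416 and 384 in parental cells and 403 and 425 in shCTL (log2 change 0.05). ADAMTS17 had 120.1 and 141 in parental PC9 and 52.3 and 34.6 in shCTL, and fell by 1.59 (SE 0.28, limma adjusted p = 0.00246). In MDA231 ADAMTS17 had 56.7 and 35.8 in parental cells and 90.8 and 80.4 in shCTL, and rose by 0.91 (SE 0.24, limma adjusted p = 0.0182). Without shCTL replicate 1 or 2 the adjusted p in MDA231 was 0.111 and 0.0604, by DESeq2 it was 0.0512 and with thinned reads 0.0831. Once the GC trend was removed, that change was 0.50 (0.0446, or 0.0625 with the replicate number as a block in the fit too). ADAMTS13, the protease of von Willebrand factor, had 7.94 and 11.7 in parental PC9 and 25.7 and 19.3 in shCTL, and rose by 1.13 (SE 0.37, limma adjusted p = 0.0384). Leaving out either shCTL library, either shLCN2_2 library or parental replicate 1 ended that call (adjusted p = 0.0691 to 0.197), as did DESeq2 (0.112) and GC trend removal (0.76, 0.121). ADAMTS7 had 2.84 and 0 in parental MDA231 (1 read) and 22.2 and 4.55 in shCTL (37 reads), a ratio of 9.37 with an interval of 1.58 to 380. It rose by 2.53 (SE 0.85, limma adjusted p = 0.0443), a call lost with edgeR (0.181) and DESeq2 (0.106) and, among the fits without 1 library, without shCTL replicate 1 (0.247), parental replicate 2 (0.184) or any one shLCN2_1 or shLCN2_2 library (0.0585 to 0.0736). A pseudocount of 5 also ended it (1.36, 0.0697).

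Set against each other over the 29 members tested in both lines, which share no library, 5 rose in both: ADAMTS9, MMP19, TIMP2, TIMP3 and TIMP4. They were 83.3% of the 6 that rose in PC9 and 35.7% of the 14 that rose in MDA231. The first share rests on only 6 members. Of the 5 shared rises, TIMP2 and TIMP3 alone kept their calls in both lines under every alternative run. Over all 13392 genes tested in both lines, the 850 that rose in both were 29.2% of those that rose in PC9 and 26.5% of those that rose in MDA231. Of the 8 that fell in PC9 and the 2 that fell in MDA231, 0 were shared. Among all genes tested in both, the 1016 that fell in both lines were 31.3% of the PC9 falls and 31.4% of the MDA231 falls. With so few members that fell in MDA231, the absence of a shared one says little. ADAM23 rose in PC9 and fell in MDA231, and ADAMTS17 and MMP9 fell in PC9 and rose in MDA231. The change differed between the lines for 16 of the 29, where 46.0% of the genes tested in both lines differed.

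In PC9, the 2 LCN2 hairpins gave different pictures, and both comparisons use the same shCTL libraries. With shLCN2_1, 5 members rose and 9 fell among 38, beside 44.2% of all genes called (18.8% higher and 25.3% lower). ADAM8, MMP15, ADAM15 and MMP17 fell, and MMP13 and ADAMTS3 rose. With shLCN2_2, 10 rose and 1 fell, beside 19.5% of all genes called (9.81% higher and 9.70% lower). MMP13, MMP28, MMP17 and MMP14 were among those that rose, and ADAMTS16 fell. The members' median log2 change was -0.23 with shLCN2_1 and 0.44 with shLCN2_2, beside 0.03 and -0.00 over all genes.

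GC content moved with the groups in PC9. Spearman's correlation of a gene's GC content with its deviation in a library from its mean over libraries was taken across 15422 tested genes. It was -0.54 and -0.64 in the shLCN2_1 libraries and 0.45 and 0.51 in shLCN2_2. In parental cells it was -0.15 and 0.15 and in shCTL 0.46 and 0.36, so the step from parental to shCTL differed in it too. Each of the 9 members that fell with shLCN2_1 had a GC content of 53.7 to 68.7% (median 61.6%), and the 5 that rose had 38.3 to 48.7% (median 40.7%). The 24 not called spanned 34.6 to 65.8%. With each library's GC trend removed, 7 of the 38 members were called with shLCN2_1, 5 higher (ADAM22, ADAMTS3, MMP9, MMP13 and MMP14) and 2 lower (ADAM8 and ADAMTS16). Calls over all genes fell as well, from 6910 of 15650 genes without that removal to 3851 of 15422 with it. Values of single members under that alternative stand beside them below.

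**Figure D3:**
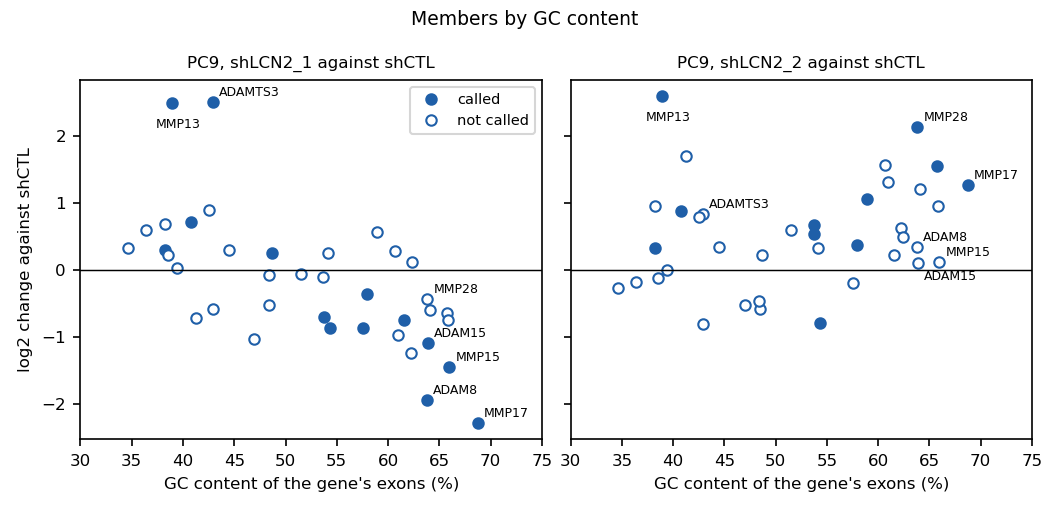
Each point is a tested member in PC9. The x axis is the GC content, in percent, of the exons of its longest transcript. The y axis is its log2 change against shCTL, with shLCN2_1 on the left and shLCN2_2 on the right. Filled points are called. On the left all 9 members that fell lie at 53.7% GC or above, and all 5 that rose lie at 48.7% or below.

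MMP13 was higher with both hairpins in PC9. It had 1.84 and 2.03 normalized reads in shCTL, 15.7 and 15.4 in shLCN2_1 and 20.1 and 13.9 in shLCN2_2 (4, 29 and 41 reads per group). Both hairpin groups were above both shCTL libraries and both parental ones. The log2 changes against shCTL were 2.50 (SE 0.37, limma adjusted p = 0.00102) and 2.59 (SE 0.37, limma adjusted p = 0.00393). After the GC trend was removed the shLCN2_1 change was 2.26. DESeq2 gave no adjusted p for either comparison (unadjusted p = 0.0033 and 0.002), and with a pseudocount of 5 the limma changes were 1.57 and 1.65. Without shLCN2_2 replicate 1 the shLCN2_2 change was 2.34 (adjusted p = 0.061). MMP14, with 102 and 107 in shCTL, had 209.8 and 116 in shLCN2_1 and 230.0 and 209 in shLCN2_2. All 4 were above shCTL, but with log2 changes of 0.58 (SE 0.25, limma adjusted p = 0.0944) and 1.06 (SE 0.25, limma adjusted p = 0.0218) only the second was called, and it was lost without either shCTL or either shLCN2_2 library (adjusted p = 0.106 to 0.144). After removal of the GC trend, MMP14 rose with shLCN2_1 by 1.25. MMP9 had 30.4 and 22.0 in shLCN2_1 and 41.8 and 27.7 in shLCN2_2, beside 26.6 and 21.3 in shCTL, and was called with neither (log2 changes 0.12 and 0.50, limma adjusted p = 0.788 and 0.297). Once the GC trend was removed, its change with shLCN2_1 was 1.17 and called.

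MMP28 had 112 and 103 normalized reads in PC9 shCTL, 56.6 and 111 in shLCN2_1 and 535 and 423 in shLCN2_2. The shLCN2_2 libraries stood above all others, with a log2 change of 2.14 (SE 0.36, limma adjusted p = 0.00718). The shLCN2_1 libraries overlapped shCTL (-0.43, limma adjusted p = 0.369). Without any one shCTL or shLCN2_2 library the shLCN2_2 adjusted p was 0.0526 to 0.0778. MMP17 went opposite ways with the hairpins: beside 112 and 79.3 in shCTL it had 21.0 and 16.5 in shLCN2_1 and 217 and 239.9 in shLCN2_2. None of the 3 groups overlapped, and the log2 changes were -2.28 (SE 0.30, limma adjusted p = 0.00055) and 1.27 (SE 0.30, limma adjusted p = 0.0217). Removing the GC trend ended the call on the fall with shLCN2_1 (-0.59, adjusted p = 0.0785, with 4.27e-08 to 0.0981 over all alternatives), and the rise with shLCN2_2 was lost without any one shCTL or shLCN2_2 library (0.0736 to 0.172).

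MMP15, ADAM8 and ADAM15 fell with shLCN2_1 in PC9. MMP15, a membrane-type MMP, had 3611 and 3372 normalized reads in shCTL, 1464 and 1115 in shLCN2_1 and 3723 and 3855 in shLCN2_2. ADAM8, a sheddase also found on leukocytes, had 2712 and 2695 in shCTL, 621 and 792 in shLCN2_1 and 3371 and 3491 in shLCN2_2. ADAM15, which carries an integrin-binding motif, had 7887 and 7011 in shCTL, 3699 and 3309.6 in shLCN2_1 and 7861 and 8092 in shLCN2_2. In each of the 3 genes the shLCN2_1 libraries lay below every other library of the line. The log2 changes were -1.45 for MMP15 (limma adjusted p = 0.000265), -1.95 for ADAM8 (limma adjusted p = 0.000168) and -1.09 for ADAM15 (limma adjusted p = 0.000168). With the GC trend removed, ADAM8 remained called (-0.74, adjusted p = 0.0074), while MMP15 was at -0.03 (0.847) and ADAM15 at 0.13 (0.254). For each gene that adjusted p was the highest over its alternatives, the lowest being 1.23e-28, 2.16e-17 and 2.78e-21 in that order, all by DESeq2. Exons of ADAM15 overlap those of DCST1 on the same strand.

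ADAM10 was higher with both hairpins in PC9, at 9053 and 9138 normalized reads in shLCN2_1 and 9435 and 9173 in shLCN2_2, beside 7312 and 7496 in shCTL. Neither group overlapped shCTL, and the log2 changes were 0.30 (SE 0.06, limma adjusted p = 0.00348) and 0.33 (SE 0.06, limma adjusted p = 0.00726). The first was 0.05 (adjusted p = 0.404) with the GC trend removed, with 0.000164 to 0.448 over all alternatives, and the second was lost without any one shCTL or shLCN2_2 library (0.064 to 0.0858). ADAM17 had 7542 and 6387 in shLCN2_1 and 5612 and 5326 in shLCN2_2, and was called with neither (log2 changes 0.23 and -0.11, limma adjusted p = 0.0573 and 0.391), although edgeR (0.017), DESeq2 (0.0429) and upper-quartile scaling (0.0142) called the first. ADAM22 had 696 and 700.5 in shLCN2_1 and 804 and 759 in shLCN2_2, above 429 and 417 in shCTL. It rose by 0.72 (limma adjusted p = 0.000343) and 0.88 (limma adjusted p = 0.00118) on the log2 scale, and both calls held with the GC trend removed.

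Among the ADAMTS genes in PC9, ADAMTS3 rose with shLCN2_1 from 0.918 and 1.02 normalized reads (2 reads) to 10.5 and 9.91 (19 reads). The ratio was 10.6, with a 95% counting interval of 2.55 to 93.7, and the log2 change 2.51 (SE 0.40, limma adjusted p = 0.00155). With a pseudocount of 5 it was 1.35, and DESeq2 gave no adjusted p (unadjusted p = 0.00811). With shLCN2_2 it had 2.41 and 2.60 (6 reads), which was not called (0.83, limma adjusted p = 0.186). ADAMTS7 had 33.0 and 19.3 in shCTL, 12.6 and 19.8 in shLCN2_1 and 70.0 and 83.1 in shLCN2_2, and rose by 1.56 with shLCN2_2 (SE 0.36, limma adjusted p = 0.0208). Leaving out any one shCTL or shLCN2_2 library ended that call (0.0569 to 0.160). ADAMTS16 was lower with both hairpins, at 246 and 207 in shLCN2_1 and 248 and 231 in shLCN2_2, beside 403 and 425 in shCTL. It fell by 0.87 (limma adjusted p = 0.000937) and 0.78 (limma adjusted p = 0.00596) on the log2 scale, without overlap. The first held with the GC trend removed, and the second was lost without any one shCTL or shLCN2_2 library (0.0569 to 0.0733).

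The TIMP genes changed by at most 0.54 on the log2 scale with either hairpin in PC9. TIMP1 had 1314 and 1522 normalized reads in shLCN2_1 and 2374 and 2333 in shLCN2_2, below and above the 1903 and 1722 of shCTL. It fell by 0.36 (SE 0.11, limma adjusted p = 0.0266) and rose by 0.38 (SE 0.11, limma adjusted p = 0.0412) on the log2 scale. Without 1 library the adjusted p reached 0.177 with shLCN2_1 and 0.255 with shLCN2_2, and with the GC trend removed the first turned to 0.22. The first was also not called by edgeR (0.0648) or with upper-quartile scaling (0.0704), nor the second with the GC trend removed (0.0521) or with the replicate block (0.0531). TIMP2 had 12240.4 and 13807 in shLCN2_1 and 20133 and 20469 in shLCN2_2, and rose with shLCN2_2 by 0.54 (SE 0.07, limma adjusted p = 0.00253). With shLCN2_1 its change was -0.10 (limma adjusted p = 0.253). TIMP3 changed by 0.25 with shLCN2_1 (SE 0.07, limma adjusted p = 0.026) and by 0.23 with shLCN2_2 (SE 0.07, limma adjusted p = 0.0645). The call with shLCN2_1 was lost without either shCTL library, shLCN2_1 replicate 1 or either shLCN2_2 library (0.0539 to 0.124), and after GC trend removal (0.18, adjusted p = 0.0919). By contrast the shLCN2_2 change was called by edgeR (0.049), by DESeq2 (0.0484) and after GC trend removal (0.026).

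Compared directly in PC9, shLCN2_1 had 15 members lower and 2 higher than shLCN2_2 among 38, beside 54.5% of all genes called (25.6% higher and 28.9% lower). The members' median was -0.50, beside 0.02 over all genes. Of the 12 MMPs 6 were lower with shLCN2_1. MMP17 (-3.55, limma adjusted p = 6.47e-05), MMP28 (-2.57, limma adjusted p = 0.000586), ADAM8 (-2.29, limma adjusted p = 5.89e-05) and MMP15 (-1.57, limma adjusted p = 0.000119) were among the 15 lower members. MMP7 (matrilysin), with 4.20 and 12.1 normalized reads in shLCN2_1 and 38.6 and 47.6 in shLCN2_2, was lower by a log2 change of -2.41 (SE 0.52, limma adjusted p = 0.00477). MMP11 had 16.8 and 5.51 in shLCN2_1 and 45.8 and 58.0 in shLCN2_2 (-2.29, SE 0.49, limma adjusted p = 0.00455), and MMP25 had 8.39 and 3.30 beside 17.7 and 21.6 (-1.69, SE 0.55, limma adjusted p = 0.0306). No library of these 3 genes overlapped between the hairpins. MMP25 was lost without shLCN2_1 replicate 2 (0.130), shLCN2_2 replicate 1 (0.0873) or shLCN2_2 replicate 2 (0.140), and by DESeq2 (0.0924).

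Further members lower with shLCN2_1 than with shLCN2_2 were ADAM19, ADAMTS7, ADAMTS13 and ADAM11. ADAM19 had 528 and 793 normalized reads in shLCN2_1 and 1779 and 1599 in shLCN2_2 (-1.38, SE 0.17, limma adjusted p = 0.000263). ADAMTS7 differed by -2.20 (SE 0.36, limma adjusted p = 0.0012) and ADAMTS13, with 10.5 and 19.8 beside 56.3 and 49.4, by -1.80 (SE 0.37, limma adjusted p = 0.0041). ADAM11, with 13.6 and 3.30 beside 29.8 and 26.0, differed by -1.86 (SE 0.55, limma adjusted p = 0.0209), a call lost without shLCN2_1 replicate 2 (0.0663), shLCN2_2 replicate 1 (0.0974) or shLCN2_2 replicate 2 (0.0759). In none of these genes did the 2 hairpin groups overlap. ADAMTS3 was higher with shLCN2_1 (1.68, SE 0.40, limma adjusted p = 0.00829), a call not made by DESeq2 (adjusted p = 0.0717, beside 0.00625 at the lowest of its alternatives). With the GC trend removed 34.1% of all genes were called in this comparison in place of 54.5%. The members called went from 17 to 11, and MMP15, MMP25, ADAM11, ADAMTS7, ADAMTS13 and MMP11 were not among the 11. MMP17 (-1.51), MMP28 (-1.15) and ADAM8 (-0.88) were. These were not the only changes: ADAM15 and ADAMTS14 turned direction, and the 11 included ADAM9, which was not called before.

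**Figure D4:**
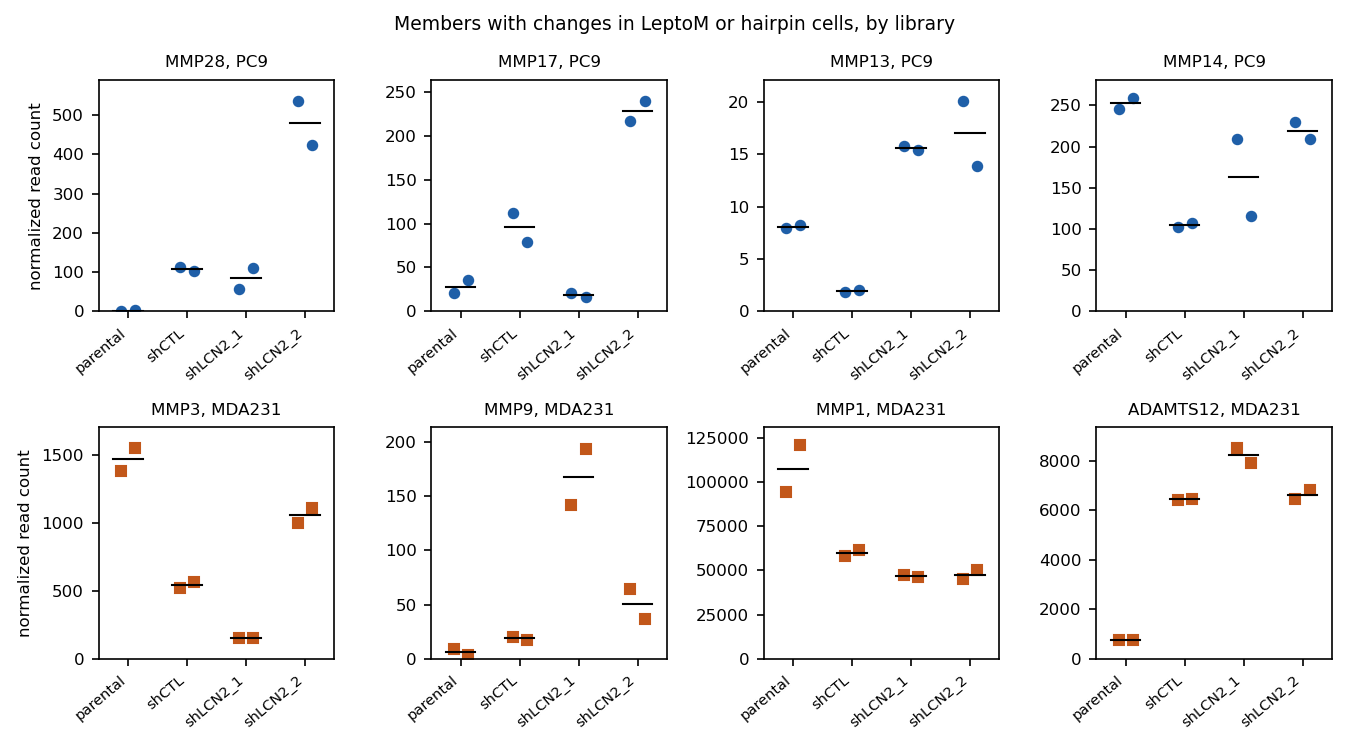
Normalized read counts per library for MMP28, MMP17, MMP13 and MMP14 in PC9 (circles) and MMP3, MMP9, MMP1 and ADAMTS12 in MDA231 (squares), by group, with bars at the means of 2 libraries. MMP3 lies at 150.4 and 151 with shLCN2_1 in MDA231 and at 997 and 1112 with shLCN2_2.

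In MDA231, where LCN2 itself was low in every library, few members changed with the hairpins, which again share the shCTL libraries. With shLCN2_1, MMP9 rose and MMP3 fell among 34 tested, beside 0.841% of all genes called (0.389% higher and 0.452% lower). With shLCN2_2, MMP3 rose and was the 1 member called, beside 0.521% of all genes called (0.139% higher and 0.382% lower). At an unadjusted limma p under 0.05 there were 15 members with shLCN2_1 and 9 with shLCN2_2. No share of all genes at that unadjusted threshold stands beside these counts, so whether they exceed the background was not tested. Other tools called more members and more genes. EdgeR called 5 and 2 members, beside 2.06% and 1.31% of all genes, and DESeq2 called 6 and 3, beside 3.36% and 2.43%. With each library's GC trend removed, 14 and 3 members were called, beside 9.74% and 7.36% of all genes. The members' medians were 0.17 and 0.23 on the log2 scale, beside 0.00 and -0.00 over all genes.

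MMP9 had 20.0 and 17.4 normalized reads in MDA231 shCTL, 142 and 194 in shLCN2_1 and 64.0 and 36.6 in shLCN2_2 (51, 520 and 141 reads per group). All hairpin libraries were above both shCTL libraries. The log2 change was 3.09 with shLCN2_1 (SE 0.46, limma adjusted p = 0.0411) and 1.33 with shLCN2_2 (SE 0.46, limma adjusted p = 0.287). The shLCN2_1 call was near the threshold: without any one shCTL, shLCN2_1 or shLCN2_2 library the change was 2.86 to 3.31 and the adjusted p 0.101 to 0.376. It was 0.0503 with a pseudocount of 0.5, 0.0581 with thinned reads and 0.0635 with the replicate block. The change with shLCN2_1 differed between the lines (-2.97 for PC9 minus MDA231, adjusted p = 0.00584, and -1.54 after GC trend removal).

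MMP3 split the hairpins in MDA231. Beside 519 and 567 normalized reads in shCTL it had 151 and 150.4 in shLCN2_1 and 997 and 1112 in shLCN2_2. The 3 groups did not overlap, and the log2 changes were -1.84 (SE 0.12, limma adjusted p = 0.00302) and 0.96 (SE 0.12, limma adjusted p = 0.0302). Leaving out shCTL replicate 1 (0.0594), shCTL replicate 2 (0.0841) or shLCN2_1 replicate 1 (0.0618) ended the first call. Any one shCTL, shLCN2_1 or shLCN2_2 library left out ended the second (0.109 to 0.406), as did the replicate block (0.0632). Directly compared, shLCN2_1 was lower than shLCN2_2 by a log2 change of -2.80 (SE 0.12, limma adjusted p = 0.000682), which held under every alternative run. In that direct comparison MMP3 and ADAMTS1 were called, both lower with shLCN2_1 (ADAMTS1 at -0.39, adjusted p = 0.0442, not called with no filter, thinned reads or the replicate block), beside 2.69% of all genes called (1.52% higher and 1.17% lower).

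MMP1, MMP14, the TIMP genes, ADAM10 and ADAM17 were not called by limma with either hairpin in MDA231. MMP1 changed by -0.35 and -0.33 on the log2 scale (limma adjusted p = 0.272 and 0.311), and TIMP3 by 0.40 and 0.39 (limma adjusted p = 0.0562 and 0.0641), which edgeR (0.0389 and 0.045) and DESeq2 (0.00514 and 0.0072) called. TIMP1 had 3629 and 4383 normalized reads in shLCN2_1 and 3970.2 and 3554 in shLCN2_2, all above the 3085 and 2756 of shCTL, but was not called (0.45 and 0.37, limma adjusted p = 0.337 and 0.412). TIMP2 had 16674 and 17602 in shLCN2_1 and 16722 and 16493 in shLCN2_2 (0.14 and 0.10, limma adjusted p = 0.494 and 0.563). MMP14 had 14984 and 17402 in shLCN2_1 and 14538 and 12638 in shLCN2_2 (0.37 and 0.12, limma adjusted p = 0.426 and 0.739). ADAM10 had 7671 and 7231 in shLCN2_1 and 5262 and 5760.3 in shLCN2_2 (0.32 and -0.12, limma adjusted p = 0.255 and 0.579), and ADAM17 had 3452 and 3303, and 2981 and 3159.7 (0.14 and 0.00, limma adjusted p = 0.512 and 0.991). With the GC trend removed, MMP1 (-0.26), TIMP1 (0.24), TIMP3 (0.43), TIMP4 (-0.62), ADAM10 (0.42) and ADAM17 (0.25) were called with shLCN2_1. A p above the threshold does not show that these genes were unaffected.

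Between the lines, the change with shLCN2_1 differed for 10 of 29 members (37.6% of all genes tested in both lines) and that with shLCN2_2 for 4 (5.87%). ADAM8 had the largest difference with shLCN2_1 after MMP9, at -2.76 (adjusted p = 0.00467), and at -1.13 after GC trend removal. ADAM22 differed with both hairpins, by 0.80 and 1.01 (adjusted p = 0.0140 and 0.0163).

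Members too low to be tested were ADAM5, ADAM20, ADAM21, ADAMTS10, ADAMTS15, MMP1 and MMP2 in PC9, and ADAM20, ADAM21, ADAM32, ADAMTS14, MMP8, MMP10, MMP12 and MMP13 in MDA231, where none passed 14.9 normalized reads in any library. ADAM5 is annotated as a pseudogene.

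Genes around the proteases were read from lists of partners and substrates. Of 10 tested genes of plasminogen activation, the cascade that activates pro-MMPs, 2 rose and 2 fell in LeptoM shCTL cells of PC9 and 3 rose and 5 fell in MDA231. In this comparison 23.8% of all genes rose and 21.8% fell in PC9, and 24.8% and 23.8% in MDA231, and the PC9 counts of this list lie near that background. PLAT, the tissue-type activator, rose in both (2.47 and 1.97 on the log2 scale), and the urokinase receptor gene PLAUR fell in both (-0.74 and -1.32). Of 9 other inhibitors, inducers and activators of MMPs, 2 rose and 2 fell in PC9 and 3 rose and 1 fell in MDA231. SPOCK1, a secreted proteoglycan, fell by 2.81 in PC9 and rose by 5.82 in MDA231. The membrane-bound MMP inhibitor RECK fell by 0.92 in MDA231. Each of these values was called by limma.

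Of 9 partners of ADAM10 and ADAM17 (tetraspanins and iRhoms), 3 rose and 4 fell in LeptoM shCTL cells of PC9 and 3 rose and 1 fell in MDA231. With shLCN2_1 in PC9 7 fell, beside 25.3% of all genes, and with shLCN2_2 3 rose, beside 9.81%. The GC trend stands beside the first count: with it removed, an alternative chosen after seeing the data, 2 rose and 2 fell. Of the substrates of these ADAMs, 3 rose and 6 fell among 15 in LeptoM shCTL cells of PC9, with AXL at -4.88 and L1CAM at -2.18 on the log2 scale. In MDA231 6 rose and 5 fell among 13, with EREG at 3.17 and BTC at -1.40. L1CAM rose by 1.71 with shLCN2_2 in PC9. Of the proteoglycans that ADAMTS proteases cut, 3 were tested in PC9 and not called by limma in LeptoM shCTL cells, and in MDA231 HSPG2 rose by 1.57 and VCAN fell by 1.83. Of 13 AP-1 and ETS transcription factor genes, 3 rose and 6 fell in PC9 and 3 rose and 3 fell in MDA231. Beside these LeptoM counts, 23.8% of all genes rose and 21.8% fell in PC9, and 24.8% and 23.8% in MDA231. The MDA231 counts of the factor genes lie near that background.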

How the data were processed

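Polyadenylated RNA of cultured cells was sequenced from stranded TruSeq libraries, per the labels' protocols. The authors deposited 1 table per cell line, whose values are a gene-level signal: gene reads divided by a size factor per library. The submitters' processing notes list HTSeq 0.5.3, DESeq2 1.22.1 and the build hg19. For the aligner, the annotation and the strand setting, no source used here gives a name. Lines of the PC9 table that name no gene (4, with 24.4 to 36.5% of a library's reads, the highest in parental replicate 2) were left out. All 155632 PC9 and 143632 MDA231 values came back as whole reads within 0.001.

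Members and lists were chosen with earlier results of these data known. Values plus a pseudocount of 1 were log2-transformed, and genes with a mean of at least 10 (15650 in PC9, 14387 in MDA231) were fitted with limma 3.58.1 (R 4.3.3, trend) over 4 groups, two-sided, adjusted by Benjamini-Hochberg. Changes in the 2 lines were compared with Satterthwaite degrees of freedom over 13392 genes. Named with values in every library were members called with a log2 change of at least 1 and no overlap (at most 12 per comparison), and MMP1, MMP2, MMP9, MMP14, TIMP1, TIMP2, TIMP3, ADAM10 and ADAM17. Others named were chosen after their values were seen. Alternatives were edgeR 4.0.16 and DESeq2 1.42.0 on the recovered reads, pseudocounts of 0.5 and 5, no filter or a mean of at least 50, upper-quartile scaling, a replicate block, GC trend removal, thinning to equal depth, and leaving out each library. Intervals of ratios cover counting error only. Scripts were tested on simulated data. Lengths came from all GENCODE 29 exons of a gene, GC content from its longest GENCODE 29 transcript, and promoters from RefSeq.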

Additional observations from a re-analysis of the deposited data

Results flagged for a closer look

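Each value here is the log2 change in PC9 minus that in MDA231 for the same comparison, where a test of that difference passed an adjusted p of 0.05 over all genes tested in both lines. From parental to LeptoM shCTL cells the inhibitor TIMP1 differed by -0.84. Of the MMPs, MMP9 differed by -3.00, MMP15 by -1.79, MMP16 by -1.43 and MMP14 by -1.34, while MMP19 differed by 1.91. Of the ADAMs, ADAM23 differed by 2.15 and ADAM17 by 0.40, and ADAM22 by -1.04 and ADAM19 by -0.79. ADAMTS genes all had the lower change in PC9: ADAMTS6 (-4.47), ADAMTS3 (-4.13), ADAMTS7 (-2.59), ADAMTS17 (-2.50), ADAMTS12 (-2.12) and ADAMTS16 (-1.28). The adjusted p of these 16 ran from 2.08e-05 to 0.0473. MMP16, ADAMTS7 and ADAM17 were not called under 1 or more alternatives that kept every library.

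With shLCN2_1 against shCTL, MMP9 (-2.97), ADAM8 (-2.76), MMP15 (-2.06), MMP11 (-1.98), ADAM15 (-1.47), TIMP1 (-0.81) and ADAMTS16 (-0.50) had the lower change in PC9. ADAMTS3 (2.45), ADAMTS6 (1.58) and ADAM22 (0.80) had the higher change in PC9. Their adjusted p ran from 0.00467 to 0.0341. ADAMTS6 and MMP11 were called in neither line alone. After GC trend removal, the differences of MMP15, MMP11, ADAM15, TIMP1, ADAMTS16, ADAMTS6 and ADAM22 in this comparison were not called. With shLCN2_2, ADAM22 (1.01), ADAM19 (0.85) and TIMP2 (0.44) had the higher change in PC9 and ADAMTS16 (-0.96) the lower, with adjusted p of 0.00357 to 0.0267. Both hairpin comparisons of a line use the same shCTL libraries.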

How the results depend on the processing

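The single-member calls examined were 116. They include the called differences between the lines, which are built from the same fits. Of the 116, 45 kept their direction and their side of the threshold under every alternative run. Among them were TIMP3 and TIMP2 in LeptoM cells of both lines, ADAMTS12, ADAMTS9, MMP1 and MMP3 in MDA231 and MMP28, MMP19 and ADAM22 in PC9. GC trend removal, with or without the block, changed the most calls outside the fits that left out a library. With 2 libraries a group, leaving out 1 leaves a lone library that is assumed to vary like the other groups. The number of all genes called also moved in those fits, so their counts of members do not speak of the members alone.

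With the GC trend removed, the members called fell to 7 (7 also with the replicate block) for shLCN2_1 and 11 for shLCN2_1 against shLCN2_2 in PC9. Calls over all PC9 genes fell too, without the block, from 6910 of 15650 to 3851 of 15422 and from 8529 of 15650 to 5265 of 15422. In MDA231 the members called rose to 14 (13 with the block) for shLCN2_1 and 3 (4 with the block) for shLCN2_2. For shLCN2_1 against shLCN2_2 they rose to 12 (9 with the block). Calls over all genes rose there, without the block, from 0.841% to 9.74%, from 0.521% to 7.36% and from 2.69% to 18.8%. The line difference was called for 7 members (7 with the block) with shLCN2_2 and, with the block, for 6 with shLCN2_1. Over all genes, calls on the shLCN2_2 difference rose from 786 to 2373 (2306 with the block). Those on the shLCN2_1 difference fell, with the block, from 5037 to 2473. In MDA231, edgeR called 5, 2 and 5 members and DESeq2 called 6, 3 and 6 for shLCN2_1, shLCN2_2 and the direct comparison. In that order edgeR called 2.06%, 1.31% and 4.78% of all MDA231 genes, and DESeq2 3.36%, 2.43% and 5.69%. For shLCN2_1 there, 1 member was called with a pseudocount of 0.5, with thinned reads or with the replicate block, and for the direct comparison 1 with no filter or with the block. In that order, calls over all genes were 110, 61 and 47, beside 121 in the main fit, and 321 and 178, beside 387. The replicate block left 0 members called for shLCN2_2 in MDA231 (1 without it), and 1 of all genes (75 without it). There 9 members had an unadjusted limma p under 0.05, a count with no all-gene share beside it. A mean of at least 50 left fewer genes tested, with 10 of 23 members called for shLCN2_1 against shLCN2_2 in PC9. For the line difference from parental to LeptoM it left 10 of 18 called. Calls over all genes were 8118 and 5467 in those fits, beside 8529 and 6162 in the main fits.

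Deviations of same-numbered libraries correlated at -0.02 to 0.08 in PC9. In MDA231 parental, shCTL and shLCN2_2 correlated with each other at 0.36 to 0.45, and shLCN2_1 with them at -0.59 to -0.41. Since not every pair was over 0.1, the numbers were not taken to pair samples, and in other comparisons the block moved no count by over 1.5 times.

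Leaving out 1 library at a time, the calls ranged from 12 to 24 (LeptoM), 9 to 22 (shLCN2_1), 2 to 20 (shLCN2_2) and 13 to 23 (direct) in PC9. In MDA231 they ranged from 10 to 22, 0 to 7, 0 to 2 and 1 to 7. The line differences ranged from 11 to 19, 0 to 15 and 0 to 7. The lowest counts came without shCTL replicate 2 for LeptoM, shCTL replicate 1 for shLCN2_1 and shLCN2_2 replicate 1 for shLCN2_2 in PC9, and without shCTL replicate 1 for LeptoM in MDA231.

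Directions turned with the GC trend removed, to the same value with and without the block, for ADAM15 (0.13), ADAM17 (-0.014), ADAMTS14 (0.23), TIMP1 (0.22) and TIMP2 (0.11) with shLCN2_1 in PC9 and for ADAM15 (0.23), ADAMTS14 (0.15), MMP14 (0.27), MMP15 (0.12), MMP9 (0.84) and TIMP3 (-0.090) between its hairpins. In MDA231 they turned for MMP14 in LeptoM cells (-0.39) and for ADAM10 (0.034), MMP14 (-0.17) and TIMP2 (-0.0065) with shLCN2_2, and the ADAM15 line difference with shLCN2_1 turned to 0.18. With edgeR and upper-quartile scaling, ADAM10 between the PC9 hairpins turned to 0.022 and 0.055 and TIMP3 between the MDA231 hairpins to -0.017 and -0.0081. Over the fits that left out 1 library, log2 changes spanned 0 for ADAM17 in LeptoM PC9 (-0.014 to 0.064) and with shLCN2_2 in MDA231 (-0.045 to 0.050), MMP9 with shLCN2_1 in PC9 (-0.11 to 0.34) and MMP14 in LeptoM MDA231 (-0.20 to 0.35). So did, between the hairpins, TIMP3 in PC9 (-0.087 to 0.13), and MMP1 (-0.090 to 0.058), TIMP1 (-0.050 to 0.22) and TIMP3 (-0.013 to 0.034) in MDA231. The cause was not tested. Depth limits members with few reads, above all in the MDA231 parental libraries.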

Other observations

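Regulators of the proteases were also compared for the 2 hairpins in PC9, with the shCTL libraries shared by both comparisons. FURIN, a proprotein convertase that activates membrane-type MMPs and ADAMs, fell by 1.77 on the log2 scale with shLCN2_1 and rose by 0.77 with shLCN2_2, both called by limma. BSG, which encodes an inducer of MMPs, fell by 1.44 with shLCN2_1. Of 9 inhibitors, inducers and activators tested, 3 fell with shLCN2_1, beside 25.3% of all genes, and 3 rose with shLCN2_2, beside 9.81%. Of 13 AP-1 and ETS factor genes, 9 fell and 2 rose with shLCN2_1 (18.8% of all genes rose), with JUNB at -2.22, and 1 rose and 1 fell with shLCN2_2. With the GC trend removed, an alternative for the lists chosen after seeing the data, the shLCN2_1 changes were -0.80 for FURIN, -0.46 for BSG and -0.90 for JUNB, all called, and 4 of the 13 factor genes fell and 2 rose.

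As RPKM (reads per kilobase of exon relative to all gene reads of the library), ADAM9 was the most abundant member in PC9 in parental cells (68.0) and in shCTL (76.1). It was not called by limma in any comparison in either line. Removing the GC trend made it called from parental to LeptoM shCTL in PC9 (0.22, adjusted p = 0.025) and MDA231 (0.46, adjusted p = 3.07e-05) and between the PC9 hairpins (-0.28, adjusted p = 0.0146). MMP1 fell in MDA231 from 1616 to 967.5 on that scale from parental to shCTL and was still the highest member, ahead of MMP14 at 89.0.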
